A study of Mus musculus with 3 samples.

Results

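The 10 genes described here encode the 5 subunits of the transcription factor NF-kB (Rel, Rela, Relb, Nfkb1 and Nfkb2) and 5 proteins of the IkB family (Nfkbia, Nfkbib, Nfkbie, Nfkbiz and Bcl3). They were chosen by name, through every probe that the array annotation assigns to them, which gave 21 of the 56605 probes and 10 of the 36609 genes on the array. Expression was measured on 3 single-colour microarrays of cultured spleen cells from male MRL/MpJ mice aged 6 months, kept for 3 h under 1 of 3 conditions, with 1 array each. In the first, the cells were in contact with urine of male MRL/MpJ-Faslpr/lpr mice (lpr urine), which carry the lpr mutation of the death receptor gene Fas and develop lupus-like autoimmunity. In the second they were in contact with urine of male MRL/MpJ mice, and in the third with phosphate-buffered saline (PBS). All cells came from MRL/MpJ spleens with intact Fas, so the mutation was in the urine donors alone. Each urine was pooled from 6 donors aged 6 months, spun and filtered. Red cells had been lysed before culture.

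Because there was 1 array per condition, no difference below has a replicate check, no test was possible, and treatment, culture well and array cannot be told apart. Both comparisons with PBS share the same PBS array. The level used is the processed signal divided by the 75th percentile of its array, called the scaled signal, and that percentile was 75.7 intensity units with lpr urine, 86.6 with MRL/MpJ urine and 157.5 with PBS. Spots of 1 probe repeated within an array gave a log2 difference between arrays a median SD of 0.05 at log2 signals of 8 or more, 0.12 at 5 to 8 and 0.28 below 5, which covers spot noise only. Markers of the spleen's cell types were measured on all 3 arrays, with 8 of 8 for B cells, 7 of 8 for T cells (Tcra was not well above background), 7 of 7 for monocytes and macrophages and 6 of 6 for neutrophils. Of 5 markers of urinary tract epithelium, Upk1b, Upk2, Upk3a and Umod were not well above background on any array.

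NF-kB is a family of dimers that wait in the cytoplasm until a receptor for microbial products, cytokines, antigen or CD40 ligand activates the IkB kinases. In the classical route these kinases mark IkB-alpha, IkB-beta and IkB-epsilon for destruction, and dimers of RelA or c-Rel with the p50 product of Nfkb1 enter the nucleus. In the alternative route the kinase NIK drives the processing of the Nfkb2 product, which frees RelB dimers. Nfkbia, Nfkbie and several subunit genes are themselves NF-kB targets, so the pathway writes its own inhibitors. IkB-zeta (Nfkbiz) and Bcl-3 differ from the cytoplasmic IkB proteins in that they act in the nucleus, where they bind p50 or p52 dimers and modulate transcription. In spleen, c-Rel is known for its role in activated B and T cells, and RelB for dendritic cells and lymphoid architecture.

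Probe sequences of the 2 members that were higher with urine are shown because the call of each gene rests on 1 probe. The Nfkbia probe (chr12:56590945-56591440, mm9, minus strand) is 60 bases long but covers 496 bases of genome, so it crosses an exon junction and reads spliced RNA. The Nfkbiz probe (chr16:55817859-55817918, mm9, minus strand) lies 5768 bases upstream of that gene's 3′-most probe. Both are given 5′ to 3′ as on the array.
Nfkbia probe A_51_P295192: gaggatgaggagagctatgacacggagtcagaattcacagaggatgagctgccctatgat
Nfkbiz probe A_55_P2039086: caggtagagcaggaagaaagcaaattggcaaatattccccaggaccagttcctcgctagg

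Promoters of 7 of the 10 members were matched by symbol in the RefSeq table of build GRCm38.p6, as 9 promoters. Relb, Nfkb1 and Nfkbiz were not matched. The 250 bases before each start were searched on both strands for the kB consensus, the decamer that NF-kB dimers bind, and for a looser form (GGG, any 5 bases, CC), which holds every kB consensus match. The kB consensus was found in Rel, Nfkbia, Nfkbie and Nfkb2, which is 4 of 7 members, against 4.46% of 27025 genes in the same table. The looser form was found in 6 of 7 members and in 48.7% of all genes. A match describes the letters and does not show that a dimer binds there. The promoters of Rel, Nfkbie and Nfkbia are shown because these genes lay far apart in the measurements, and that of Nfkb2 (the promoter with the most kB matches) because its gene stayed within 2-fold. Each is written on the strand of its gene and ends at the base before the start, and capitals mark kB consensus matches on either strand.
Rel, chr11:23770970-23771219, minus strand: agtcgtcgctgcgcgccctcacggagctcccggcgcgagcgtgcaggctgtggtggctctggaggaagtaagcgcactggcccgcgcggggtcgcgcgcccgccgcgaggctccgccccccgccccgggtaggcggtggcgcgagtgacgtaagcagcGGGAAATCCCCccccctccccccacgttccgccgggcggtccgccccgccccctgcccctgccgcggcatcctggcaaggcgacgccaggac
Nfkbie, chr17:45555450-45555699, plus strand: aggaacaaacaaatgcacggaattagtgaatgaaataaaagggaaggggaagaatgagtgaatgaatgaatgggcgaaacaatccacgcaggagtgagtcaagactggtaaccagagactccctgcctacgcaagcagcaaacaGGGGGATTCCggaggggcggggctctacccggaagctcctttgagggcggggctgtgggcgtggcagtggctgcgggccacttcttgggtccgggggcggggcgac
Nfkbia, chr12:55492648-55492897, minus strand: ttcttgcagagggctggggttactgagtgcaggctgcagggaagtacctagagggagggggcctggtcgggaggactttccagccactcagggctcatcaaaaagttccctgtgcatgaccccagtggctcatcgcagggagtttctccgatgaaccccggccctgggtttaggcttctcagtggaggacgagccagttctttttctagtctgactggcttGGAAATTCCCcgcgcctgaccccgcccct
Nfkb2, chr19:46304487-46304736, plus strand: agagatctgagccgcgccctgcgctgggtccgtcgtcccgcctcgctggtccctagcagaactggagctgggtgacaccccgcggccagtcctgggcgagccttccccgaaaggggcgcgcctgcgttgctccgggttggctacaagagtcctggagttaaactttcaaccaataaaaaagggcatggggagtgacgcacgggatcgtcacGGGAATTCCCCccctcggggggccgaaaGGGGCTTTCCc

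The Rel matches lay 92 to 82 bases before the start, that of Nfkbie 106 to 97 bases and that of Nfkbia 29 to 20 bases. Those of the Nfkb2 promoter shown lay at 39 to 29 and 11 to 2 bases. The other Nfkb2 promoters had matches at 236 to 227 and 225 to 216 bases. A kB consensus was thus present both in genes that were lower with urine and in a gene that was higher. The promoters of Rela, Nfkbib and Bcl3, whose main probes were also below PBS with urine, had none.

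The first question was how the members differ in spleen cells after contact with urine of the autoimmune strain. With lpr urine, 2 members (Nfkbia and Nfkbiz) were at least 2-fold higher than with PBS and 4 (Rel, Nfkbib, Nfkbie and Bcl3) were at least 2-fold lower, while Rela, Relb, Nfkb1 and Nfkb2 stayed within 2-fold. Across the 19370 genes that both arrays measured, 18.5% were higher by that much and 12.0% lower. The median log2 difference was -0.93 over the 10 members and 0.15 over all genes. With MRL/MpJ urine, again set against PBS, 2 members were at least 2-fold higher and 3 at least 2-fold lower (Rel, Nfkbie and Bcl3), where 16.9% of 19639 genes were higher and 11.1% lower. The median was -0.88 over the members and 0.13 over all genes. These counts hold for the 75th-percentile scale, on which the middle members sit just inside 2-fold: scaled by array medians or by the spike-ins, or after normexp background correction, 8 members were at least 2-fold lower in each comparison and the same number, 2, were higher. The share of all genes at least 2-fold lower also moved with the setting, to 22.1% with lpr urine and 21.0% with MRL/MpJ urine under array median scaling, 44.3% and 41.0% under spike-in scaling, and 9.66% and 8.23% after normexp.

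**Figure D1:**
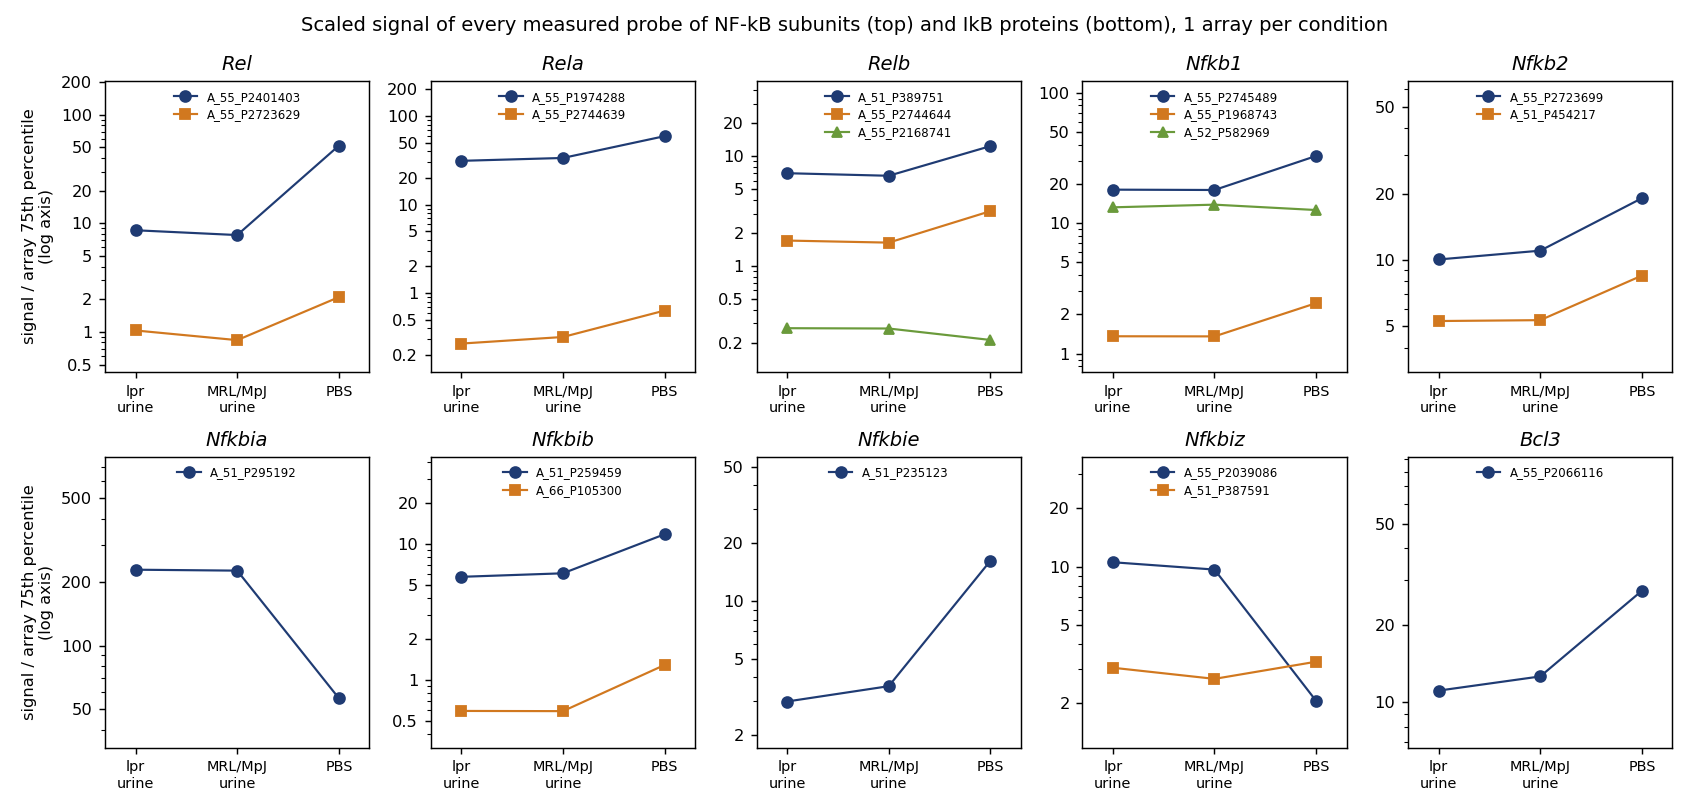
Scaled signal (signal over the array's 75th percentile, log axis) of the 19 member probes that were well above background on every array, 1 panel per gene, with the lpr urine array at the left, the MRL/MpJ urine array in the middle and the PBS array at the right. The PBS point stands apart from both urine points in Rel, Nfkbia, Nfkbie and the Nfkbiz probe A_55_P2039086, and lines join points of 1 probe only to guide the eye.

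By main probe, all 5 subunits were below 0 against PBS with lpr urine, and so were all 5 with MRL/MpJ urine. The median of all genes was 0.15 and 0.13 on this scale, but -0.85 and -0.78 under spike-in scaling. The share of all genes below 0 is not given here, so the sign alone does not set the subunits apart. On the 75th-percentile scale, 1 subunit was at least 2-fold lower. That gene was Rel, which encodes c-Rel. Its brighter probe (chr11:23637051-23637110, mm9, minus strand) had a scaled signal of 8.63 with lpr urine and 7.80 with MRL/MpJ urine, against 51.9 with PBS. The urine arrays lay close together and far under the PBS array, a difference already present before scaling (654 and 676 intensity units, against 8180). Rel was thus 6.01-fold lower with lpr urine than with PBS and 6.66-fold lower with MRL/MpJ urine (log2 differences -2.59 and -2.74). In bulk samples such as these, fewer cells of a type and less RNA per cell cannot be told apart. Of all genes measured, 0.805% lay below it in the lpr urine comparison and 0.494% in the MRL/MpJ urine comparison. The other Rel probe, 4678 bases upstream, read 1.03 with lpr urine and 0.841 with MRL/MpJ urine, against 2.09 with PBS. It had the same direction with a smaller difference, -1.02 with lpr urine and -1.32 with MRL/MpJ urine.

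Rela encodes RelA (p65), the main activating subunit of the classical route. Its brighter probe (chr19:5648070-5648129, mm9, plus strand) read a scaled signal of 31.2 with lpr urine and 33.6 with MRL/MpJ urine, against 59.2 with PBS. The urine arrays were again the lower ones, by a log2 difference of -0.93 with lpr urine and -0.82 with MRL/MpJ urine, inside the 2-fold limit. The dimmer probe, which crosses an exon junction 2600 bases upstream, gave -1.24 and -0.99 for the same comparisons.

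Relb, the subunit of the alternative route, was read by 3 probes on chromosome 7. The brightest (chr7:20191722-20191781, mm9, minus strand) had a scaled signal of 7.03 with lpr urine and 6.66 with MRL/MpJ urine, against 12.4 with PBS. Its neighbour 217 bases upstream read 1.71 with lpr urine and 1.64 with MRL/MpJ urine, against 3.17 with PBS. These neighbouring probes differed from PBS by -0.82 and -0.89 with lpr urine and by -0.90 and -0.95 with MRL/MpJ urine. The probe 11336 bases upstream was dim and slightly higher with urine, at 0.271 with lpr urine and 0.269 with MRL/MpJ urine, against 0.212 with PBS.

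Nfkb1, whose product p105 is cut to the DNA-binding subunit p50, showed the same kind of split between its probes. The 3′-most and brightest probe (chr3:135247898-135247958, mm9, minus strand) read a scaled signal of 18.1 with lpr urine and 18.0 with MRL/MpJ urine, against 32.8 with PBS. The probe 6652 bases upstream read 1.36 with lpr urine and 1.35 with MRL/MpJ urine, against 2.44 with PBS. Both were lower with urine by closely similar log2 differences, -0.86 and -0.84 with lpr urine and -0.87 and -0.85 with MRL/MpJ urine. The probe 27246 bases upstream read 13.2 with lpr urine and 13.9 with MRL/MpJ urine, against 12.6 with PBS, so its arrays hardly differed (0.07 and 0.14).

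Nfkb2 encodes p100, which both restrains RelB and is the precursor of p52. Its brighter probe (chr19:46386440-46386499, mm9, plus strand) had a scaled signal of 10.1 with lpr urine and 11.0 with MRL/MpJ urine, against 19.1 with PBS. The junction-crossing probe 214 bases upstream read 5.28 with lpr urine and 5.33 with MRL/MpJ urine, against 8.50 with PBS. Both probes were lower with urine and within 2-fold, at -0.93 and -0.69 with lpr urine and -0.79 and -0.67 with MRL/MpJ urine. Rela, Relb, Nfkb1 and Nfkb2 therefore had main-probe differences between -0.93 and -0.82 with lpr urine and between -0.90 and -0.79 with MRL/MpJ urine, and the share of all genes below each of them was 13.4% to 16.1% with lpr urine and 13.5% to 16.2% with MRL/MpJ urine.

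The IkB genes went in opposite directions. Nfkbia encodes IkB-alpha, the inhibitor that is destroyed and resynthesised in each round of NF-kB signalling. Its probe, printed above, had a scaled signal of 229 with lpr urine and 227 with MRL/MpJ urine, against 56.3 with PBS. Before scaling the urine arrays were also the brighter ones (17342 and 19644 intensity units, against 8868). Relative to PBS, Nfkbia was 4.07-fold higher with lpr urine and 4.03-fold higher with MRL/MpJ urine (log2 differences 2.02 and 2.01). Of all genes, 5.36% lay above it with lpr urine and 5.08% with MRL/MpJ urine. The difference was smallest under spike-in scaling, at 1.03 and 1.10, still above 2-fold.

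Nfkbie, which encodes IkB-epsilon, an inhibitor of c-Rel and RelA dimers, was the furthest below PBS of the inhibitors. Its 1 probe (chr17:45700000-45700059, mm9, plus strand) read a scaled signal of 2.99 with lpr urine and 3.60 with MRL/MpJ urine, against 16.2 with PBS. Unscaled signals were 227 and 312 intensity units with the urines, against 2551 with PBS. This is 5.41-fold lower with lpr urine and 4.50-fold lower with MRL/MpJ urine (-2.44 and -2.17), with 1.06% and 1.50% of all genes below it in those comparisons.

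Nfkbib encodes IkB-beta, a slower inhibitor of the same dimers, and both of its probes cross exon junctions. The brighter one (chr7:29544167-29544848, mm9, minus strand) read 5.70 with lpr urine and 6.05 with MRL/MpJ urine, against 11.7 with PBS. The other read 0.588 with lpr urine and 0.586 with MRL/MpJ urine, against 1.28 with PBS. All 4 differences from PBS lay close to the 2-fold limit, with -1.04 and -1.12 for lpr urine and -0.95 and -1.13 for MRL/MpJ urine, so the count of members past 2-fold turns on this gene.

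Bcl3, a nuclear partner of p50 and p52 homodimers, had a scaled signal of 11.1 with lpr urine and 12.6 with MRL/MpJ urine, against 27.3 with PBS (chr7:20393826-20393885, mm9, minus strand). It was 2.46-fold lower with lpr urine and 2.17-fold lower with MRL/MpJ urine (-1.30 and -1.12). Its other probe, 3312 bases upstream, was not well above background on any array and gives no fold.

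Nfkbiz encodes IkB-zeta, a nuclear protein induced by microbial products and interleukin-1 that helps switch on secondary response genes. The main probe, printed above, had a scaled signal of 10.5 with lpr urine and 9.66 with MRL/MpJ urine, against 2.05 with PBS. It was 5.14-fold and 4.71-fold higher than with PBS (2.36 and 2.24). The 3′-most probe (chr16:55812091-55812150, mm9, minus strand) read 3.03 with lpr urine and 2.66 with MRL/MpJ urine, against 3.26 with PBS, with log2 differences of -0.10 and -0.29. The probes of this gene thus went apart, and the call of Nfkbiz as higher rests on the upstream one. That probe was brighter than the 3′-most one with each urine but dimmer with PBS (323 against 513 intensity units). It was thus the main probe only through the arrays on which it was high. By the probe that was brighter with PBS, Nfkbiz was within 2-fold. A further probe, 12706 bases upstream, was not well above background on any array. With the gene's measured probes averaged, the difference was 1.13 with lpr urine and 0.97 with MRL/MpJ urine (just short of 2-fold).

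**Figure D2:**
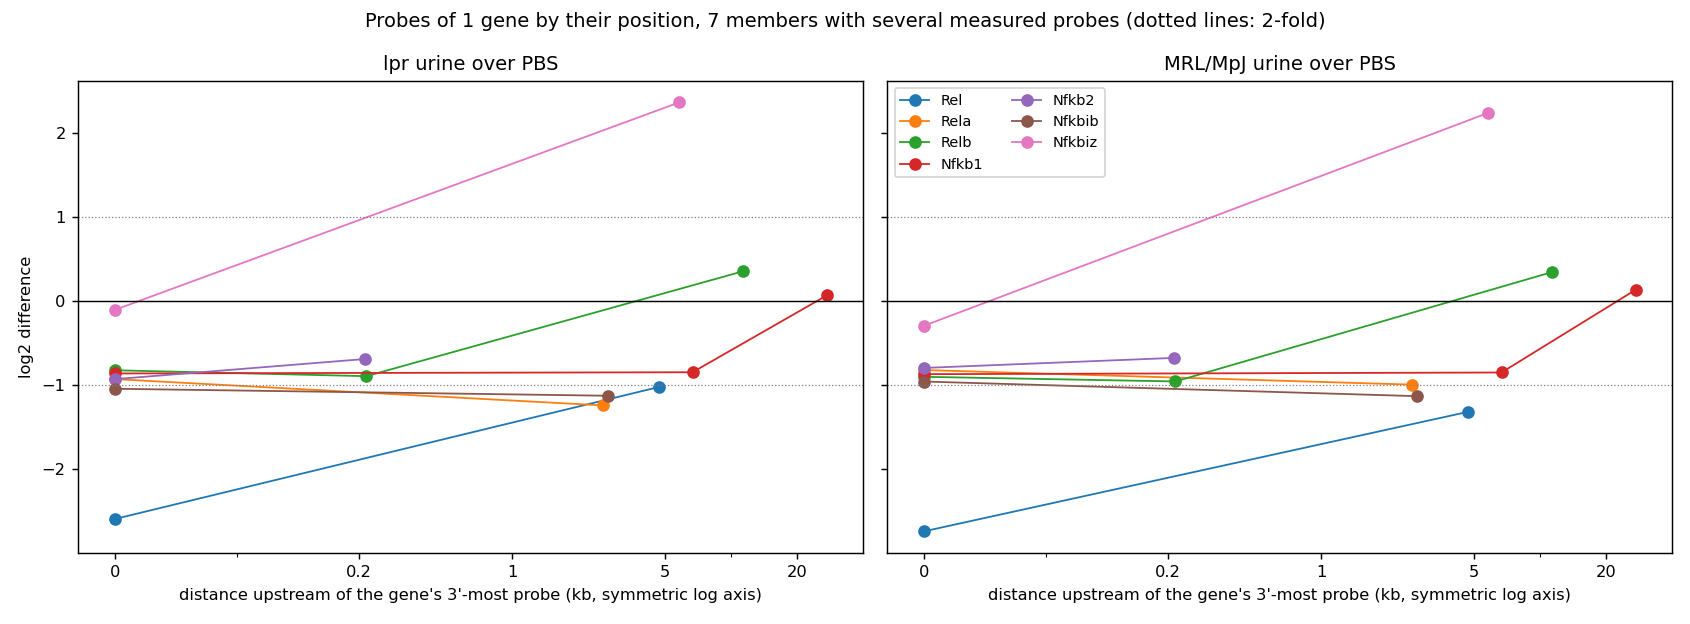
Log2 difference from PBS of each measured member probe (vertical axis) against its distance upstream of the 3′-most probe of its gene (horizontal axis, kb, symmetric log scale), with lpr urine in the left panel and MRL/MpJ urine in the right, for the 7 members with several measured probes. Nfkbiz, Rel, Relb and Nfkb1 each have an upstream probe above their 3′-most one, by up to 2.46 with lpr urine and 2.53 with MRL/MpJ urine.

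In Rel, Relb, Nfkb1 and Nfkbiz, the gap between the highest and the lowest probe of the gene was 1.57, 1.25, 0.93 and 2.46 with lpr urine, and 1.42, 1.30, 1.00 and 2.53 with MRL/MpJ urine. In Rela, Nfkb2 and Nfkbib it was at most 0.31. Gaps of this size were common on these arrays. Among 6418 genes with several measured probes, the gap was 1 or more in 32.4% of genes with lpr urine and 30.3% with MRL/MpJ urine, and 2 or more in 11.2% and 9.97%. Among 5204 genes with probes at least 1000 bases apart, the upstream probe was above the 3′-most one in 57.6% with lpr urine and 56.0% with MRL/MpJ urine, by a median of 0.13 and 0.09. Probes can read different transcript variants. By the array annotation, both Rel probes are assigned to the same transcript, and so are both measured Nfkbiz probes. The far upstream probes of Relb and Nfkb1 are assigned to other transcripts than the remaining probes of their genes. Which further variants each probe reads was not determined.

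Cell type markers also differed between the arrays, and are given here on the 75th-percentile scale alone. Spike-in scaling moved the median of all genes by -0.997 with lpr urine and -0.909 with MRL/MpJ urine. Whether a marker sum lies above PBS therefore depends on the scale. The summed scaled signal of the 8 B cell markers was 404 with lpr urine and 428 with MRL/MpJ urine, against 222 with PBS. Of those markers 2 were at least 2-fold higher with lpr urine and 3 with MRL/MpJ urine, against 18.5% and 16.9% of all genes, and 0 were lower by that much. Cd79b (-0.34 and -0.23) and Blk (-0.61 and -0.39) were below PBS. T cell markers summed to 216 and 202 with the urines, against 186 with PBS. Dendritic cell markers summed to 168 and 180, against 122, of which Siglech made up 164 and 176, against 117. Zbtb46 in that list was at least 2-fold lower with each urine on its main probe (-2.45 and -2.23). That probe was dim with the urines (scaled signals of 0.063 and 0.073). The other Zbtb46 probe was not measured with lpr urine and gave -0.77 with MRL/MpJ urine. Flt3 differed by -0.31 and -0.26 on its main probe but by 1.02 and 0.94 on the other. Xcr1 was not well above background on any array, and the list's median by main probes was -0.12 and -0.04. Neutrophil markers summed to 802 and 815, against 419, and those of monocytes and macrophages to 85.1 and 96.5, against 56.8. The neutrophil markers did not all go 1 way. Of the 6, 2 were at least 2-fold higher with each urine, while Mpo differed by -1.19 with lpr urine and -0.61 with MRL/MpJ urine. The part of cell composition in the members' differences was not tested.

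Scaling moves every probe of an array by the same amount, so it cancels when members are set against each other. On that footing the ratio of Nfkbia to Rel was 24.5 times as high with lpr urine as with PBS and 26.8 times as high with MRL/MpJ urine by the main Rel probe. With the other Rel probe it was 8.25 times and 10.02 times as high. By main probes, the ratio of Nfkbia to Rela was 7.73 and 7.10 times as high, that of Nfkbia to Nfkbib 8.37 and 7.81 times, and that of Nfkbia to Nfkbie 22.0 and 18.1 times.

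**Figure D3:**
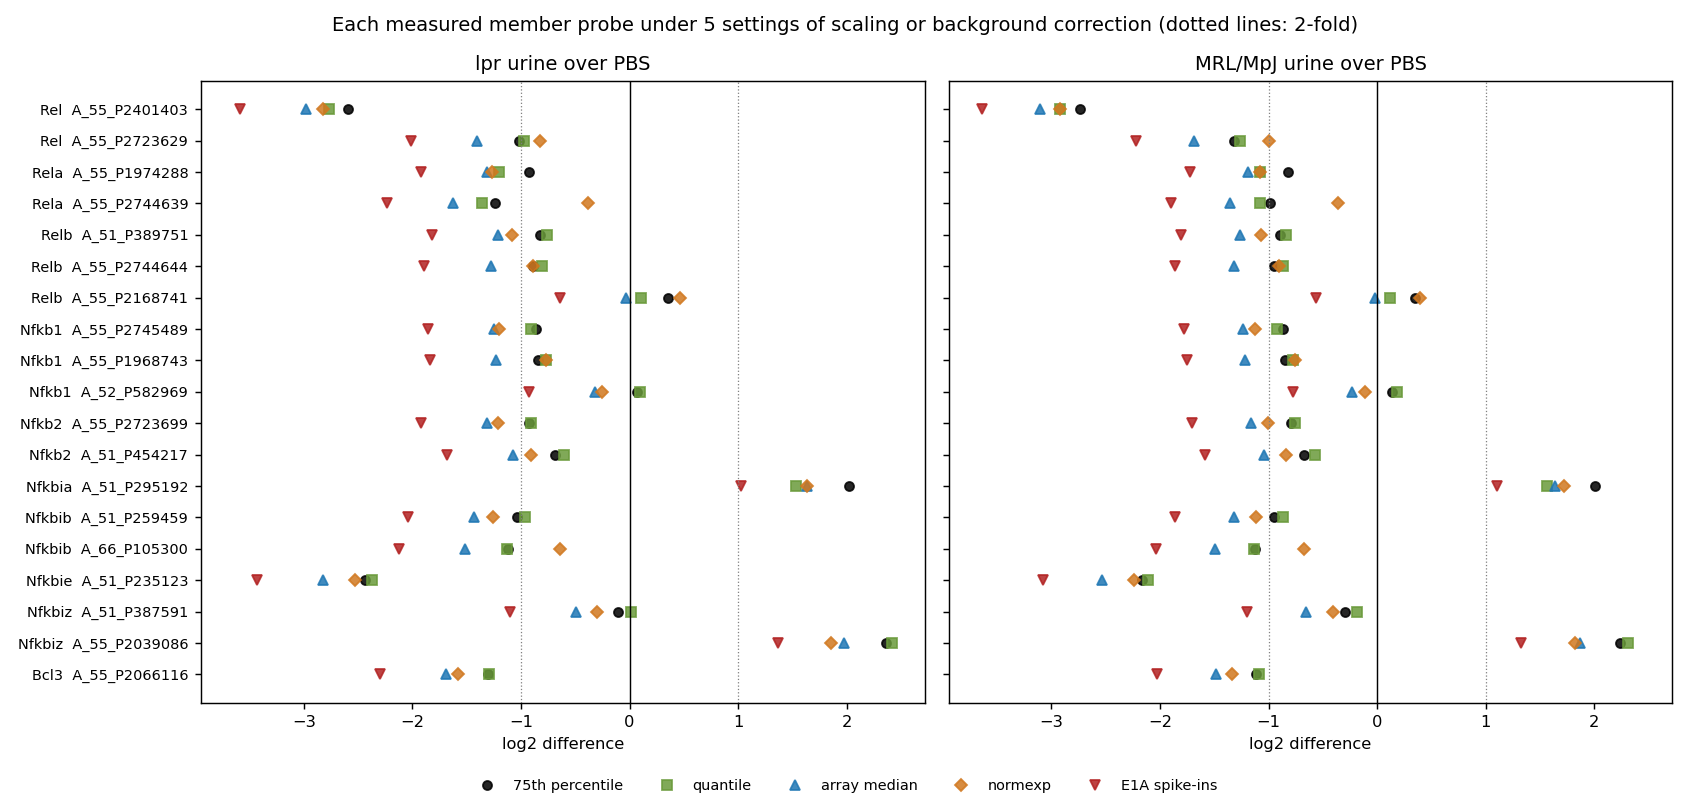
Log2 difference from PBS of each measured member probe (rows) with lpr urine (left) and MRL/MpJ urine (right) under 5 settings of scaling or background correction (symbols), with dotted lines at 2-fold. The main probes of Rel, Nfkbie and Bcl3 stay left of the lower line and those of Nfkbia and Nfkbiz right of the upper line under all 5, while most subunit probes cross the lower line.

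Over these 5 settings, 16 of the 19 measured probes kept their sign against PBS with lpr urine and 17 with MRL/MpJ urine. The exceptions were the far upstream probes of Relb and Nfkb1 and, with lpr urine, the 3′-most probe of Nfkbiz. In each comparison 5 probes stayed past 2-fold under all settings, namely those of Nfkbia and Nfkbie and the main probes of Rel, Nfkbiz and Bcl3. The main probe of Rel ranged over the settings from -3.59 to -2.59 with lpr urine and from -3.64 to -2.74 with MRL/MpJ urine. The same counts over all probes of the arrays are not given here. The counts above therefore describe the member probes and do not set them apart from other probes.

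The third comparison set the urines against each other and asks whether urine of the autoimmune strain acts on these genes otherwise than urine of its parent strain. Set against MRL/MpJ urine, lpr urine left 0 of 10 members past 2-fold in either direction, where 0.340% of 20014 genes were higher and 0.0600% lower. The members' main probes lay between -0.27 and 0.15, with a median of -0.04, while the 5th and 95th percentiles of all genes were -0.33 and 0.43. Nfkbie was the furthest apart at -0.27, followed by Bcl3 at -0.18, Rel at 0.15 and Nfkb2 at -0.13. Nfkbia differed by 0.01. The difference of Nfkbie was larger than the median SDs that repeated spots gave on either side of its brightness (0.12 at log2 signals of 5 to 8 and 0.05 above). Those SDs cover spot noise only, and the software's own error for this probe was 10.0% of the signal on each urine array. Without replicate arrays the difference cannot be set against the spread between wells.

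On the 75th-percentile scale, most of the 13 genes listed for the IkB kinase (IKK) complex and the signalling upstream of it stayed within 2-fold. Spike-in scaling moved the median of all genes by -0.997 with lpr urine and -0.909 with MRL/MpJ urine. The counts against PBS in this list and those that follow therefore depend on the scale. Of these 13 genes, 3 were at least 2-fold lower with lpr urine and 2 with MRL/MpJ urine, and 0 were higher (medians -0.22 and -0.32). For this list and those that follow, the shares over all genes measured were 12.0% lower and 18.5% higher with lpr urine. With MRL/MpJ urine they were 11.1% lower and 16.9% higher. Map3k14, which encodes NIK, had a scaled signal of 4.93 with lpr urine and 5.87 with MRL/MpJ urine, against 14.2 with PBS (-1.52 and -1.27). Map3k8, the kinase Tpl2 held by p105, differed by -1.43 and -1.65, and Ripk2, the kinase of NOD receptors, by -1.02 with lpr urine. The catalytic subunit genes Ikbkb and Chuk were within 2-fold, at 0.61 and 0.34 with lpr urine and 0.59 and 0.23 with MRL/MpJ urine, although the 4 Ikbkb probes differed in sign.

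Among 18 measured adaptors and receptors upstream of IKK, 3 were at least 2-fold lower and 1 higher with lpr urine, and likewise 3 and 1 with MRL/MpJ urine (medians -0.35 and -0.34). Tnfrsf13c, the BAFF receptor of B cells and a trigger of the alternative route, was 2.95-fold lower with lpr urine and 2.61-fold lower with MRL/MpJ urine on its main probe, and lower on its other probe too. Traf6, the ubiquitin ligase of Toll-like and interleukin-1 receptors, differed by -2.48 and -2.51 on its main probe and Tnfrsf1b, a TNF receptor gene, by -2.47 and -2.53. Their other probes did not all share this: the highest Traf6 probe gave -0.20 and 0.16, and the other Tnfrsf1b probe gave 0.63 and 0.61.

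Other inhibitors and brakes of the pathway had 13 measured genes, of which 5 were at least 2-fold lower and 1 higher with lpr urine, and 4 lower and 1 higher with MRL/MpJ urine (medians -0.16 and -0.37). Tnfaip3, the ubiquitin-editing enzyme A20 and a classical NF-kB target, had a scaled signal of 6.30 with lpr urine and 5.96 with MRL/MpJ urine, against 36.3 with PBS (-2.53 and -2.61). Its partner Tnip1 differed by -1.45 and -1.32. Nfkbid, which encodes the nuclear protein IkB-NS, differed by -1.80 and -2.15 on its main probe but by up to 2.42 and 2.29 on another, so the gene has no single direction. Zc3h12a, the RNase Regnase-1, was higher by 1.15 and 1.25 on its main probe, while its other probe gave -0.13 and 0.37.

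**Figure D4:**
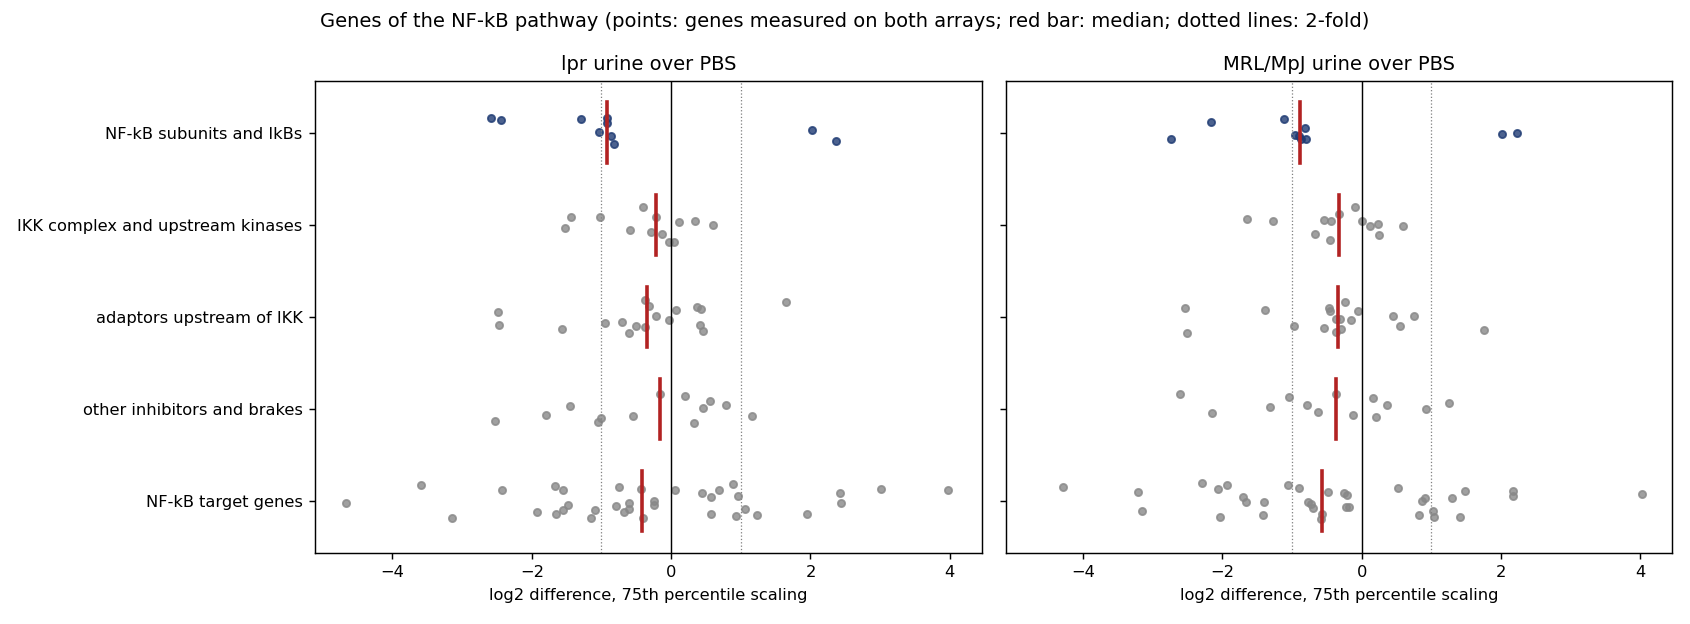
Log2 difference from PBS of every measured gene in the 4 pathway lists and in the members, each point 1 gene by its main probe and each red bar a list's median, with lpr urine in the left panel and MRL/MpJ urine in the right. Members and NF-kB target genes spread to both sides of 0, from -2.59 to 2.36 and from -4.67 to 3.97 with lpr urine.

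The listed NF-kB target genes also went both ways. Of 36 measured with lpr urine, 12 were at least 2-fold lower and 7 higher (median -0.42), where 12.0% of all genes were lower and 18.5% higher. Of 35 with MRL/MpJ urine, 12 were lower and 8 higher (median -0.57), where 11.1% of all genes were lower and 16.9% higher. The lowest was the chemokine gene Ccl4, with 1.76 and 2.31 for the urines, against 45.1 with PBS (-4.67 and -4.29). It was followed by Cd83, a maturation marker of B and dendritic cells (-3.59 and -3.15), and Irf4, a transcription factor downstream of c-Rel in lymphocytes (-3.15 and -3.21). At the other end stood Gadd45b, a stress-response gene, with 177 and 184 for the urines, against 11.3 with PBS (3.97 and 4.03), the neutrophil chemokine gene Cxcl2 (3.02 and 2.17) and the AP-1 gene Junb (2.44 and 2.18). Between the urines, 0 genes of these 4 lists were 2-fold apart in either direction by main probe, where 0.340% of all genes were higher and 0.0600% lower. The nearest were Ptgs2, Il1b and Cxcl1, inflammatory genes that were higher with lpr urine by 0.94, 0.93 and 0.90 on their main probes. The 3 Il1b probes ranged from 0.21 to 1.02, and Cxcl1 was dim, at scaled signals of 0.228 with lpr urine and 0.122 with MRL/MpJ urine.

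The genes whose pattern was most like that of Rel were found by the Euclidean distance between their pairs of log2 differences from PBS, over 14118 named genes measured on all 3 arrays. They were Peg12 (distance 0.03), Gm10910 (0.12), Tnfaip3 (0.14), Cetn4 (0.15) and Gpr146 (0.15), and 26 genes lay within 0.25. Nearest to Nfkbia were Baiap3 (0.01), Sfpq (0.02), Bcl11a (0.04), Gm35147 (0.04) and Kif9 (0.04), with 175 genes within 0.25. With 3 arrays the measure rests on 2 values a gene, those of its main probe. The other Rel probe gave -1.02 with lpr urine and -1.32 with MRL/MpJ urine and was not used, so the genes named for Rel are those nearest to its main probe.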

How the data were processed

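RNA of 3 cell cultures was read on 1-colour (Cy3) Agilent arrays, which lie on 1 slide and come from 1 scan, per the file headers. The authors deposited the output of Agilent Feature Extraction 12.0.3.1 (also named in the submitters' processing notes): intensity per spot, background-subtracted and detrended within the array and not normalised between arrays, per the file headers. Positions of probes come from the mm9 annotation in the headers, and no transcript model of that build was used here.

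From these files, non-control spots of 1 probe were averaged after flagged spots were left out, which kept 56599 probes. Each level is the log2 of the processed signal after division by the 75th percentile of its array. A gene was read from its main probe. That was the probe well above background by the software's call on most arrays, and then the brightest by mean log2 signal over all arrays. A gene was called where it differed at least 2-fold and was well above background on both arrays. The calling step was checked on simulated arrays with known changes, which gives no error rate for the calls on these arrays. Alternatives were scaling by the array median or by 8 E1A spike-in probes, normexp background correction with offset 50 (limma 3.58.1), quantile normalization, the mean of a gene's probes, and no filter on dim probes. The software's own error was 10.0% to 11.1% of the signal for the 19 measured member probes, none of them saturated.

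Named list genes were, per list and comparison, the 3 highest and 3 lowest by main probe, and the 5 nearest genes were named for Rel and Nfkbia. The members, lists and markers were chosen with earlier results of these data known. Of the lists, results of NK, plasma, erythroid and platelet markers stand in the closing section. For 1 gene of the adaptor list, values are not reported here. The design had foreseen protein features of the members; no protein sequences were used here.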

Additional observations from a re-analysis of the deposited data

How the results depend on the processing

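Directions against PBS depend on the scale, since the median of all genes shifted by -0.39 with lpr urine and -0.37 with MRL/MpJ urine under array median scaling, by -0.997 and -0.909 under spike-in scaling, and by -0.13 and -0.12 under quantile normalization. Of all genes past 2-fold, 60.7% were higher with lpr urine and 60.3% with MRL/MpJ urine on the 75th-percentile scale, against 33.5% and 33.7% under array median scaling, 11.1% and 12.0% under spike-in scaling, and 43.1% and 45.8% after normexp. Members at least 2-fold lower numbered 8 with lpr urine and 8 with MRL/MpJ urine under each of these 3 settings, and their medians were -1.32 and -1.25 under array median scaling, -1.92 and -1.79 under spike-in scaling, and -1.24 and -1.10 after normexp. With the mean of each gene's probes, 5 members were lower with lpr urine and 4 with MRL/MpJ urine, 1 was higher with MRL/MpJ urine, and the MRL/MpJ urine median was -0.82. Between the urines the median was -0.13 under spike-in scaling and -0.11 after normexp. Quantile normalization and leaving out the filter on dim probes moved no count of members by more than 1.5 times. No result changed sign while past 2-fold. No paired analysis was possible because each condition had 1 array, and for the same reason no replicate could be left out. Signal near background limits the dim probes of Rela, Relb and Nfkbib most.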

Other observations

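In the promoters of the pathway lists, the kB consensus was found in 5 of 13 genes among other inhibitors and brakes (Nfkbid, Tnfaip3, Tnip1, Tnip3 and Cyld). Of the 4 measured, 3 were at least 2-fold lower in each comparison with PBS, by main probe. Among NF-kB target genes it was found in 10 of 31 promoters, and of the 8 measured, 2 were at least 2-fold higher and 2 lower with lpr urine, with the same counts for MRL/MpJ urine. It was found in 1 of 9 promoters of the IKK list and in 2 of 15 of the adaptors, and none of those 3 genes was 2-fold apart from PBS. Over all genes measured, 18.5% were higher and 12.0% lower with lpr urine, and 16.9% and 11.1% with MRL/MpJ urine. The lists were chosen with earlier results known, and these counts are a description.

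Among the remaining marker lists, summed scaled signals were 131 with lpr urine and 134 with MRL/MpJ urine, against 71.1 with PBS, for plasma cells. In that list 4 of 5 markers were at least 2-fold higher with each urine, and Xbp1 differed by -0.48 and -0.47. The sums were 201 and 185, against 154, for erythroid cells, and 2.14 and 1.86, against 1.39, for platelets and megakaryocytes. For NK cells they were 10.6 and 11.1, against 14.8, most of it Klrd1 (8.53 and 8.97, against 13.6). The other NK cell markers went both ways, with Ncr1 higher than with PBS by 1.17 and 1.26, Eomes by 0.98 and 0.99, and Klrb1c at -0.49 and -0.52, and the median of that list was 0.24 in each comparison.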
